A study of Mus musculus with 21 samples.

Results

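Ribosomes are built from ribosomal RNA and many small proteins, and mouse cells make separate ribosomes for the cytosol and for the mitochondrion. The genes described here encode the proteins of both. Genes were taken by name from the count matrix: names beginning Rpl, Rps, Rplp or Rpsa gave 84 cytosolic genes, and names beginning Mrpl or Mrps gave 77 mitochondrial genes, so 161 of 14493 genes in all. The kinase genes named Rps6k, binding protein genes and 15 pseudogenes marked -ps were left out (25 names in all).

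Cytosolic ribosomes translate all messages made in the nucleus, and their protein messages mostly begin with a run of pyrimidines, the terminal oligopyrimidine or 5′ TOP motif, through which the mTOR pathway controls their translation. Mitochondrial ribosomes translate only the few respiratory chain subunits encoded by mitochondrial DNA, and all of their proteins are imported. In the germinal centre, B cells divide and mutate their receptors in the dark zone, are selected in the light zone with the transcription factor Myc induced in selected cells, and leave as memory B cells or as antibody-secreting plasma cells.

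The data were single-cell 5′ gene expression counts of lymph node B-lineage cells from 6 mice. Mice were injected under the skin at the tail base with 100 µg of the hapten-carrier conjugate NP-KLH in Sigma Adjuvant System, received 5 mg of tamoxifen by gavage no earlier than day 6 to start Cre-ERT2-driven eYFP marking, and were killed on day 10, 16 or 22, with 2 mice for each day. Live IgD-negative eYFP+ cells were sorted, plasma cells (PC) into one well and all other cells into another (non-PC), and each mouse was tagged with a barcoded anti-CD45 antibody before the mice were pooled within a well. All groups carried the same label and immunisation, there was no unimmunised group, and the genotype, strain, age and the promoter driving Cre are not given in the sources used here. Cells were compared by the deposited state names DZ (2382 cells), LZtoDZ (232), preMem (522), prePC (47), PC (242) and LZ (3194), with LZ as the common comparator and with counts summed for each mouse and state, so that the mouse was the replicate.

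The 6619 cells held 1335 to 70744 unique molecular identifiers (UMIs, each marking 1 captured molecule), with a median of 8437. The median was 9310 in DZ, 22505 in LZtoDZ, 5357 in preMem, 15290 in prePC, 18723 in PC and 7785 in LZ. Of the PC cells 234 of 242 came from the PC well and of the LZ cells 3116 of 3194 from the non-PC well, so the state PC and its well nearly coincide. The 2 wells shared 6 cell barcodes. The 6 listed dark zone marker genes were higher in DZ than in LZ, the 6 light zone markers were lower there, and the 6 plasma cell markers were higher in PC, all by the edgeR test below. Summed T cell marker genes stood at 64.4 CPM (UMIs scaled to the same total in every sum) in DZ, 81.4 in LZtoDZ, 76.3 in preMem, 95.1 in prePC, 10.3 in PC and 135 in LZ (17.8 to 442 in single mice of prePC, 102 to 158 in LZ), and NK cell markers had no UMI in LZtoDZ, preMem or PC. Summed stromal and endothelial markers were highest in preMem, at 58.5 CPM (44.5 to 87.1 in single mice) against 19.7 CPM in LZ (16.2 to 21.6), from 1 of the 2 such genes measured. Summed myeloid markers stood at 9.56 CPM in LZtoDZ (3.53 to 39.7) and 58.7 CPM in LZ (9.66 to 123). Summed memory precursor markers stood at 933 CPM in preMem, 584 CPM in prePC and 42.5 CPM in LZ. Summed plasma cell markers stood at 2523 CPM in prePC (1648 to 4498 in single mice) and 1737 CPM in DZ (1630 to 1898), so these ranges overlapped. They stood at 1093 CPM in LZ, 1017 CPM in LZtoDZ, 416 CPM in preMem and 22774.5 CPM in PC. The deposited table calls the states a supervised annotation and the rule behind them is not given in the sources used here. If expression of these genes entered that rule, p-values between states are too small. The comparisons of days and of wells do not set one state against another, but their cells were also chosen by state. The part of T cell, stromal, endothelial or myeloid RNA in the results was not tested in any comparison.

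Among the cytosolic genes Rpl41, which encodes the smallest ribosomal protein, had the most UMIs, 525679, or 2.95% of all UMIs of the cytosolic set. Rps20 held 2.79% and Rpsa, also known as the laminin receptor, 2.53%. A 5′ UMI is counted once for each molecule whatever the length of the transcript, and these shares are not scaled by length. The paralogues Rpl39l with 13 UMIs and Rps4l with 352, and Mrpl53 with 377, were too low for the tests between states, which left 82 cytosolic and 76 mitochondrial members among 7474 genes tested.

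The 2 sets did not move together over the states. The cytosolic set took 26.1% ± 0.73 of the non-immunoglobulin UMIs in DZ, 29.0% ± 0.55 in LZtoDZ, 31.9% ± 1.13 in preMem, 30.8% ± 1.97 in prePC, 27.8% ± 1.31 in PC and 26.0% ± 0.37 in LZ (mean ± SD over 6 mice, and over 5 for prePC). The mitochondrial set took 0.833% ± 0.016 in DZ, 1.10% ± 0.027 in LZtoDZ, 0.587% ± 0.026 in preMem, 0.803% ± 0.13 in prePC, 0.866% ± 0.071 in PC and 0.793% ± 0.0075 in LZ. Over all cells of a state, preMem thus had the highest cytosolic share and the lowest mitochondrial share, and LZtoDZ had the highest mitochondrial share.

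In single mice the cytosolic share of preMem lay between 31.2% and 34.2% with a median of 31.5%, against 25.6% to 26.6% with a median of 26.0% in LZ. The mitochondrial share was 0.556% to 0.617% in preMem (median 0.592%) and 0.779% to 0.801% in LZ (median 0.795%). The mitochondrial share of LZtoDZ was 1.06% to 1.14% with a median of 1.10%. The mitochondrial share of DZ was 0.808% to 0.852%. None of these ranges overlapped with LZ. In PC the cytosolic share ran from 25.4% to 29.2% (median 28.2%) and the mitochondrial share from 0.743% to 0.941% (median 0.874%), and both ranges overlapped with LZ, with 5 of 6 mice higher in PC. That order depends on leaving out immunoglobulin, which took a larger part of the UMIs in PC. In day 10 mouse 2 the cytosolic set held 555331 of all 2604276 UMIs in PC and 1738096 of 6824665 in LZ. Over all UMIs the cytosolic part was lower in PC than in LZ in every mouse. The share of prePC rests on 3 to 28 cells a mouse.

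The number of cytosolic UMIs per UMI of the mitochondrial set put these shares on 1 scale. It was 31.4 ± 1.07 in DZ, 26.5 ± 0.51 in LZtoDZ, 54.5 ± 3.94 in preMem, 39.3 ± 7.97 in prePC, 32.2 ± 3.10 in PC and 32.8 ± 0.71 in LZ. The ratio was higher in preMem than in LZ in 6 of 6 mice and lower in LZtoDZ than in LZ in 6 of 6, with no overlap in either case. In DZ the ratio was lower than in LZ in 6 of 6 mice and in PC in 5 of 6, with ranges that overlapped with LZ.

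**Figure D1:**
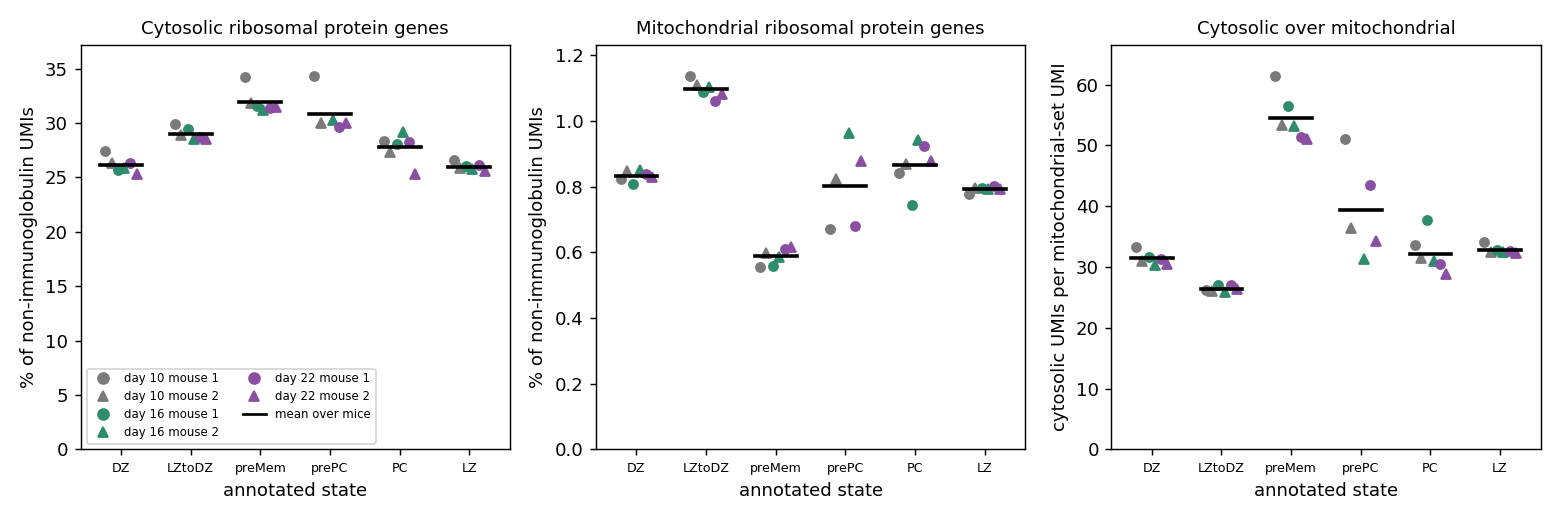
Shares of non-immunoglobulin UMIs (percent, y axis) taken by the cytosolic set and by the mitochondrial set, and their ratio, in each annotated state (x axis); points are mice, coloured by day and shaped by mouse, and bars are means. preMem is highest in cytosolic share and ratio (mean 31.9% and 54.5) and lowest in mitochondrial share (0.587%), and LZtoDZ is highest in mitochondrial share (1.10%).

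The states differed in the deposited cell cycle calls. Cells called G1 made up 37.0% of DZ, 7.33% of LZtoDZ, 93.1% of preMem, 57.4% of prePC, 50.4% of PC and 54.2% of LZ. Among G1 cells alone the cytosolic share was 32.1% ± 1.07 in preMem against 27.3% ± 0.49 in LZ, and the mitochondrial share was 0.581% ± 0.026 against 0.756% ± 0.012 (SD, n = 6). G1 cells of prePC had shares of 33.0% and 0.609% in 4 mice, from 3 to 16 cells a mouse. Their mean cytosolic share thus lay above that of G1 cells of preMem, with ranges that overlapped. The ratio of the 2 sets was 54.3 in G1 cells of prePC and 55.4 in those of preMem. G1 cells of PC had shares of 27.3% and 0.756% in 5 mice, the same to 3 digits as in LZ. Among cells called S phase, LZtoDZ had 29.2% cytosolic and 1.08% mitochondrial (5 mice), against 25.8% and 0.820% in LZ (6 mice). Among cells with 15000 to 30000 UMIs, a window chosen after seeing the data, LZtoDZ had 28.7% and 1.08% in 5 mice, against 26.4% and 0.852% in LZ. The LZtoDZ cells of this window were still deeper, with a median of at least 19947 UMIs in each mouse, against at most 18212 in LZ, and preMem gave no value there.

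Each member was then tested with edgeR's quasi-likelihood test on the sums, with the mouse as a block and Benjamini-Hochberg adjustment over all genes tested. A gene counts as changed at an adjusted p under 0.05, log2 differences carry their SE, and CPM from here on are based on non-immunoglobulin UMIs with TMM factors (trimmed mean of M-values). All 5 comparisons share the LZ sums.

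In preMem the cytosolic and the mitochondrial genes changed in opposite directions. Of 82 cytosolic genes 70 were higher and 2 lower than in LZ, with a median log2 difference of 0.44. Of 76 mitochondrial genes 3 were higher and 38 lower, with a median of -0.36. Over all 7474 genes 41.0% were called, 21.4% higher and 19.6% lower, with a median of 0.03. Both subunits took part: 42 of 49 cytosolic large-subunit and 28 of 33 small-subunit genes were higher, while 24 of 47 Mrpl and 14 of 29 Mrps genes were lower. Without day 10 mouse 2, which gave 286 of the 522 preMem cells, the mitochondrial count was 26, against 2133 of 6888 genes called. Among G1 cells alone 66 cytosolic genes were higher and 2 lower, and 0 mitochondrial genes were higher and 31 lower, against 27.0% of all genes called.

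The largest cytosolic differences in preMem were those of Rps27 and Rps24, small-subunit proteins. Rps27 (chr3:90212522-90213651) had 6071 to 6801 CPM in preMem (median 6191), against 3640 to 3867 CPM in LZ (median 3707). The ranges stood well apart, with a log2 difference of 0.76 ± 0.05 (adjusted p = 3.9e-17). Rps24, mutated in some cases of Diamond-Blackfan anaemia, had 9398 to 10867 CPM in preMem and 5835 to 6145 CPM in LZ (0.75 ± 0.05, adjusted p = 1.1e-17). The large-subunit genes Rpl36 (0.72 ± 0.06) and Rpl37a (0.65 ± 0.05) followed. The 2 cytosolic genes that fell were paralogues: Rps27l by 0.68 ± 0.11 (adjusted p = 9.7e-07) and Rpl7l1, a gene for an Rpl7-like protein, by 0.46 ± 0.13 (adjusted p = 0.0038). All of these had the same direction in 6 of 6 mice.

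Among the mitochondrial genes of preMem, Mrps28 (chr3:8802146-8923918), for a small-subunit protein, was lowest relative to LZ. It had 26.8 to 51.9 CPM in preMem (median 39.2) and 68.7 to 82.2 CPM in LZ (median 74.8), so every preMem mouse lay below every LZ mouse, with a difference of -0.94 ± 0.14 (adjusted p = 2.9e-07). Mrpl49 (-0.80 ± 0.15), Mrps18a (-0.74 ± 0.12), Mrpl40 (-0.69 ± 0.13) and Mrpl12 (-0.65 ± 0.11) were next. Mrpl12 encodes the stalk protein of the mitochondrial large subunit, which recruits translation factors. The 3 genes that rose were Mrpl30 (0.43 ± 0.09, adjusted p = 5.8e-05), Mrps16 (0.39 ± 0.09) and Mrpl24 (0.32 ± 0.11, adjusted p = 0.022). Mrpl30 had 150 to 252 CPM in preMem and 142 to 187 CPM in LZ, which overlap between mice although each mouse was higher in preMem.

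**Figure D2:**
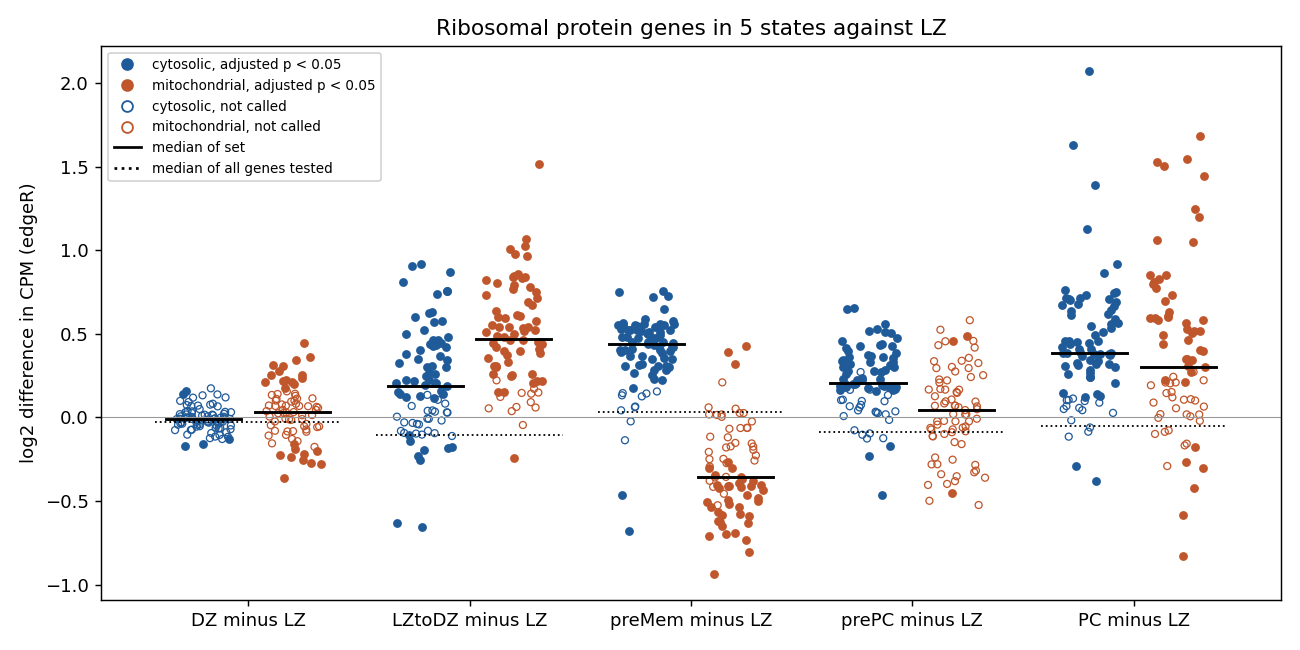
Log2 difference in CPM of each state against LZ (y axis; edgeR) for cytosolic (blue) and mitochondrial (orange) genes; filled points passed an adjusted p of 0.05, black bars are set medians and dotted lines the median of all genes tested. In preMem the set medians lie at 0.44 and -0.36, and in LZtoDZ at 0.19 and 0.47.

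In LZtoDZ the mitochondrial genes were the more uniform set. Of 76, 63 were higher than in LZ and 1 lower, with a median of 0.47. Of 82 cytosolic genes 49 were higher and 9 lower, with a median of 0.19. Over all genes 61.0% were called, 26.1% higher and 34.8% lower, with a median of -0.10. Within the cytosolic set 34 of 49 large-subunit genes were higher and 2 lower (median 0.23), while of 33 small-subunit genes 15 were higher and 7 lower (median 0.04). No test of that difference between the subunits was made. G1 cells alone could not be compared, since too few LZtoDZ cells were called G1.

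Mrps6 (chr16:92058270-92112227), a mitochondrial small-subunit gene, had the largest rise of any member in LZtoDZ. Its CPM were 80.4, 53.8, 67.7, 65.0, 54.4 and 72.6 in the LZtoDZ cells of the 6 mice, against 21.0 to 22.5 in LZ with a median of 21.8. No LZtoDZ mouse came near the LZ range, and the difference was 1.51 ± 0.11 (adjusted p = 4.4e-17). Mrpl12 (chr11:120484613-120489065) had 322 to 382 CPM in LZtoDZ (median 364) and 165 to 179 CPM in LZ (median 167), a difference of 1.07 ± 0.07 (adjusted p = 1.3e-17). Mrps28, lowered in preMem, was raised here by 1.02 ± 0.07, with 147 to 168 CPM in LZtoDZ. Mrps5 (1.01 ± 0.10) and Mrps10 (0.98 ± 0.10) were the next. Mrpl43 alone fell, by 0.24 ± 0.08 (adjusted p = 0.0053).

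Among the cytosolic genes of LZtoDZ, Rps27l (0.92 ± 0.08), Rps2 (0.91 ± 0.08), Rpl14 (0.87 ± 0.06) and Rpl31 (0.76 ± 0.08) were among those that rose most. Rps2, a protein near the path by which the message enters the small subunit, had 5873 to 6444 CPM in LZtoDZ (median 6132), against 3173 to 3317 CPM in LZ (median 3260). Rps27 fell by 0.63 ± 0.05 (adjusted p = 4.8e-15), with 2293 to 2561 CPM in LZtoDZ and every mouse below its LZ value. Rps20 (-0.23 ± 0.05) and Rps24 (-0.20 ± 0.05) also fell. Rps27 and Rps24 were thus higher than LZ in preMem and lower in LZtoDZ, while Rps27l, Mrps28 and Mrpl12 were lower in preMem and higher in LZtoDZ.

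The promoters of mitochondrial members whose values turn on these states are shown for comparison. Each line gives 70 bases before and 30 bases after the annotated start, from the RefSeq table for GRCm38.p6, and capitals mark CCGGAAG, a core letter run of sites bound by the ETS family of transcription factors.
Mrps12: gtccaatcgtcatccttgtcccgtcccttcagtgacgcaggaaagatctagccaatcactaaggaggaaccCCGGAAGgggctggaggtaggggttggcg
Mrps18a: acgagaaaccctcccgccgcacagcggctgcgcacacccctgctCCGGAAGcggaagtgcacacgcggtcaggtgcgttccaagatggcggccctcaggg
Mrpl12: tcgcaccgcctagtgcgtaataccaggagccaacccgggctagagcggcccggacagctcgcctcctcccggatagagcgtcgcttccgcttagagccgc
Mrps6: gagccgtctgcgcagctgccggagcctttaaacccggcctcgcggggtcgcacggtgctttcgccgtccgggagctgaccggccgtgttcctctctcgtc

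These lie at chr7:28741792-28741891 (minus strand, Mrps12), chr17:46110934-46111033 (plus, Mrps18a), chr11:120484567-120484666 (plus, Mrpl12) and chr16:92058266-92058365 (plus, Mrps6). The motif was searched on both strands in windows of 250 bases before to 50 after the start. A gene counted when any of its windows held the letters. CCGGAAG stood in 25 of the 68 mitochondrial members with a window (36.8%) and in 2683 of all 27025 genes with a window (9.93%). Those 27025 genes were taken whether or not they were expressed in these cells. The letters CACGTG, the E-box that Myc can bind, stood in 5 of 68 (7.35%) against 8.09%. Windows were at hand for 88.3% of the mitochondrial but only 75.0% of the cytosolic members, so the search is void for the cytosolic set. The windows of Mrps12 and Mrps18a held CCGGAAG, and those of Mrpl12 and Mrps6, which rose most in LZtoDZ, did not hold these letters.

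In PC both sets were higher than in LZ under TMM scaling. Of 82 cytosolic genes 66 were higher and 2 lower (median 0.39), and of 76 mitochondrial genes 42 were higher and 6 lower (median 0.30), against 63.1% of all genes called, 31.1% higher and 32.0% lower (median -0.05). The size of this shift depends on scaling. With library sizes without TMM the median of all genes moved to -0.39 and the sets split into 37 higher and 20 lower cytosolic (median 0.08) and 25 higher and 20 lower mitochondrial (median -0.03), so the direction of the mitochondrial median flipped while both medians stayed above that of all genes. Over all genes 5250 of 7474 were called without TMM, so neither set had a larger part called than all genes. Among G1 cells 53 cytosolic genes were higher and 4 lower, and 23 mitochondrial higher and 7 lower, against 53.3% of all genes called. These G1 counts also used TMM, with set medians of 0.32 and 0.18. The unscaled shares of G1 cells were 27.3% and 0.756% in PC and the same to 3 digits in LZ. No G1 count without TMM was made. Within the PC well, where 3 mice had enough LZ cells, 17 cytosolic genes were higher and 1 lower of 82, and 7 mitochondrial higher and 1 lower of 65, against 30.2% of 3013 genes called.

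A few members stood out in PC far more than their sets. Rpl36al (chr12:69182731-69184083), a paralogue of the large-subunit gene Rpl36a, had 2872 to 3873 CPM in PC (median 3569) and 1092 to 1164 CPM in LZ (median 1142), a difference of 1.63 ± 0.06 (adjusted p = 3.3e-29). Rpl10 (chrX:74270812-74273135), a protein added late in the maturation of the large subunit, had 5331 to 7047 CPM in PC (median 6371) and 2346 to 2445 CPM in LZ (median 2411), a difference of 1.39 ± 0.07 (adjusted p = 6.2e-25). Rpl41 had 14026 to 17051 CPM in PC and 7020 to 7226 CPM in LZ (1.13 ± 0.05). Rps14, lost in the 5q- form of myelodysplasia, rose by 0.92 ± 0.06. In each of these every PC mouse lay above every LZ mouse. Within the PC well alone the differences were 1.47 ± 0.16 for Rpl36al (adjusted p = 0.0001), 1.12 ± 0.12 for Rpl10, 0.94 ± 0.10 for Rpl41 and 0.54 ± 0.12 for Rps14, all called.

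Rps27l (chr9:66946086-66949516), a paralogue of Rps27 known as a target of p53, had the largest difference of any member in PC. Its CPM were 1284, 1235, 984, 1089, 1402 and 1053 in the PC of the 6 mice, against 273 to 293 in LZ with a median of 283. The groups were far apart (2.07 ± 0.08, adjusted p = 3.8e-28). Within the PC well the difference was 1.45 ± 0.26 (adjusted p = 0.0022), where LZ cells had 284, 314 and 668 CPM in 3 mice, the last in day 16 mouse 1.

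Of the mitochondrial genes in PC, Mrps12 (chr7:28739641-28741820), for a protein at the decoding site of the small subunit, rose most. It had 193 to 281 CPM in PC (median 231) and 71.4 to 82.9 CPM in LZ (median 74.7), a difference of 1.68 ± 0.09 (adjusted p = 2.2e-22). Mrpl37 (1.55 ± 0.11), Mrpl13 (1.53 ± 0.11), Mrps28 (1.50 ± 0.09) and Mrpl57 (1.44 ± 0.07) came next. Within the PC well Mrps12 (1.28 ± 0.31), Mrps28 (1.24 ± 0.33) and Mrpl57 (1.30 ± 0.25) were still called, while Mrpl13 (1.16 ± 0.40, adjusted p = 0.051) and Mrpl37 (1.08 ± 0.39, adjusted p = 0.064) were not.

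The mitochondrial genes that fell in PC included Mrpl3 (chr9:105053239-105079888) and Mrps6. Mrpl3, a core protein of the large subunit, had 12.2 to 60.7 CPM in PC (median 39.3) and 70.4 to 83.1 CPM in LZ (median 79.8), a difference of -0.83 ± 0.13 (adjusted p = 2e-07). Within the PC well its value was -1.10 ± 0.44 (adjusted p = 0.093). Mrps6 had 14.0, 12.8, 0, 19.3, 18.2 and 6.09 CPM in PC, all below the 21.0 CPM of the lowest LZ mouse, with a difference of -0.59 ± 0.22 (adjusted p = 0.016). It was thus above LZ in LZtoDZ and below it in PC. Mrpl41 (-0.42 ± 0.12), Mrps9 (-0.30 ± 0.13) and Mrpl23 (-0.26 ± 0.08) were also lower.

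**Figure D3:**
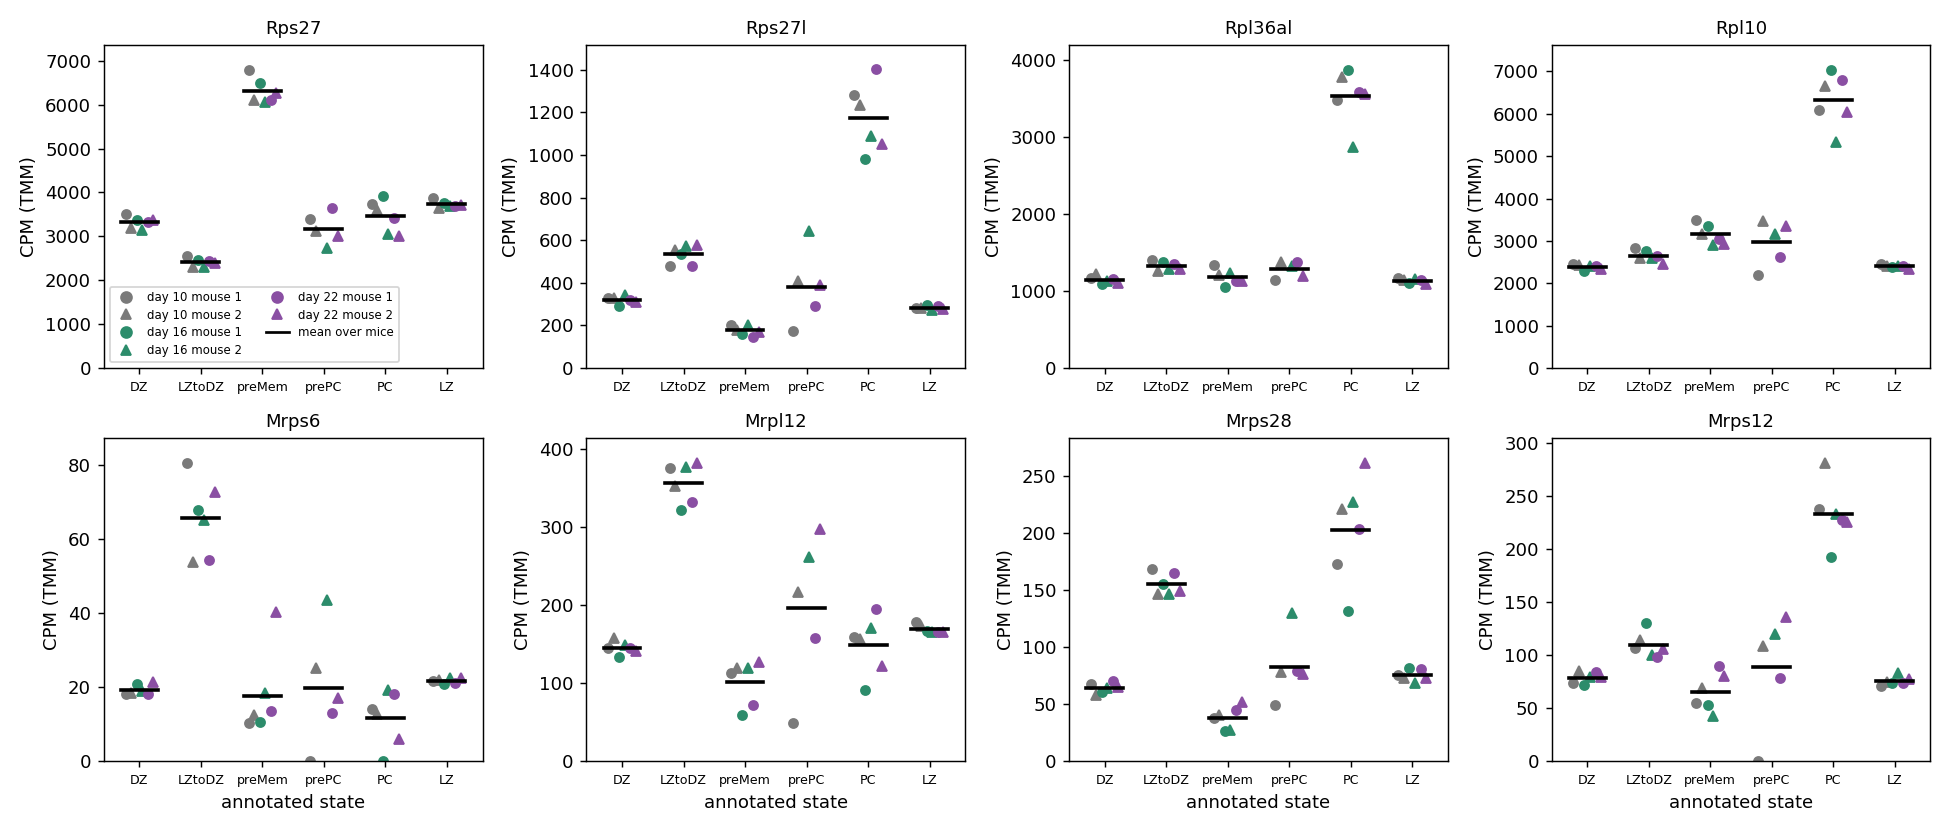
CPM after TMM scaling (y axis) of 8 members in each annotated state (x axis); points are mice and bars means. Rps27 is highest in preMem (mean 6309), Rps27l, Rpl36al, Rpl10 and Mrps12 are highest in PC, and Mrps6 and Mrpl12 are highest in LZtoDZ.

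In prePC, where 5 mice gave sums of 3 to 28 cells, 54 of 82 cytosolic genes were higher and 3 lower than in LZ (median 0.20). Of 76 mitochondrial genes 2 were higher and 1 lower (median 0.05). Over all genes 18.8% were called, 8.51% higher and 10.3% lower. Without day 10 mouse 2 and without day 22 mouse 2, in turn, 35 cytosolic genes were called, and the mitochondrial count was 1 and 2. It was also 2 without day 16 mouse 1, which had no prePC cells but gave sums of the other states. Over all genes 501 of 6888 were called without day 10 mouse 2 and 1227 of 8302 without day 22 mouse 2. Without day 16 mouse 1 the count over all genes was 1416 of 7800. Among G1 cells 25 cytosolic genes were higher and 0 lower, and 1 mitochondrial gene was higher and 3 lower, against 12.4% of all genes called. The mitochondrial median was then -0.33, so its direction turned. Rps12 (0.65 ± 0.07, adjusted p = 5.3e-11), Rps2 (0.65 ± 0.09), Rpl22l1 (0.56 ± 0.08), Rpl14 (0.53 ± 0.07) and Rplp1 (0.52 ± 0.07), an acidic protein of the large-subunit stalk, rose most. Rps12 had 3043 to 3444 CPM in prePC (median 3147) and 1926 to 2174 CPM in LZ, with no overlap. Mrpl32 rose (0.49 ± 0.17, adjusted p = 0.036) and Mrps24 fell (by 0.45 ± 0.13, adjusted p = 0.010).

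In DZ few cytosolic genes differed from LZ. Of 82 cytosolic genes 2 were higher and 3 lower (median -0.01), and of 76 mitochondrial genes 15 were higher and 10 lower (median 0.03), against 31.7% of all genes called, 13.4% higher and 18.3% lower. With library sizes without TMM the cytosolic split was 8 higher and 2 lower, against 2447 of 7474 genes called. The cytosolic count of 5 was 0 without day 10 mouse 2, 1 without day 10 mouse 1 or day 16 mouse 2, and 2 without either day 22 mouse. Over all genes these refits called 1819 (of 6888, without day 10 mouse 2) to 2272 (of 8398, without day 10 mouse 1). The cytosolic genes called included Rps6 (0.16 ± 0.06), whose protein is phosphorylated downstream of mTOR, Rps12 (0.14 ± 0.06), Rps27 (-0.17 ± 0.05) and Rpl37 (-0.13 ± 0.05), so none of these moved by more than 0.2. Mrps18a (chr17:46110986-46128910) had 144 to 188 CPM in DZ (median 157) and 106 to 133 CPM in LZ (median 115), with no overlap (0.45 ± 0.06, adjusted p = 3.5e-08). Mrpl51 (0.36 ± 0.07), Mrps10 (0.34 ± 0.08), Mrps18c (0.31 ± 0.06) and Mrpl57 (0.31 ± 0.06) were higher as well. Mrpl41 (-0.36 ± 0.07), Mrps7 (-0.28 ± 0.06), Mrpl52 (-0.27 ± 0.06), Mrpl17 (-0.26 ± 0.07) and Mrpl55 (-0.24 ± 0.08) were lower.

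Several members are paralogues of each other, and their shares of the pair need no scaling between libraries. The starts of the Rps27 family are shown because counting depends on how alike they are, with 20 bases before the annotated start in lower case and 30 bases from it in capitals (RefSeq, GRCm38.p6).
Rps27: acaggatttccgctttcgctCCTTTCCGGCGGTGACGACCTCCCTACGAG
Rps27rt: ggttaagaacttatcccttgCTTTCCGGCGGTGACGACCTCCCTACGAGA
Rps27l: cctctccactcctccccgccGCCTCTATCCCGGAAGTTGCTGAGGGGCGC

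These lie at chr3:90213619-90213668 (minus, Rps27), chr9:114982710-114982759 (minus, Rps27rt) and chr9:66946066-66946115 (plus, Rps27l). The transcripts of Rps27 and Rps27rt share a run of 341 bases, so reads can be split between them and the values of Rps27rt are uncertain. Rps27rt was lower than in LZ in LZtoDZ (-0.66 ± 0.08), prePC (-0.47 ± 0.17) and PC (-0.38 ± 0.10) and higher in preMem (0.73 ± 0.09). Rps27 and Rps27l share at most 11 bases in a row, Rpl36a and Rpl36al 24, Rpl22 and Rpl22l1 26, and Rpl7 and Rpl7l1 11.

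Rps27l made up 8.82% ± 0.67 of the UMIs of Rps27 plus Rps27l in DZ, 18.2% ± 1.77 in LZtoDZ, 2.71% ± 0.34 in preMem, 10.9% ± 5.40 in prePC, 25.4% ± 2.96 in PC and 7.06% ± 0.22 in LZ (mean ± SD). The share was higher than in LZ in 6 of 6 mice for PC, LZtoDZ and DZ and lower in 6 of 6 for preMem. Rpl36al made up 60.3% ± 4.10 of its pair with Rpl36a in PC, 37.3% ± 1.97 in preMem and 44.7% ± 0.42 in LZ, so PC was the only state of the 6 in which it held the larger part on average. Within the PC well of 3 mice Rps27l held 24.9% in PC against 8.81% in LZ, and Rpl36al 60.5% against 42.3%. Rpl7l1 held 2.63% ± 0.54 of its pair with Rpl7 in preMem, 2.52% ± 0.68 in PC and 4.95% ± 0.34 in LZ.

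The exact permutation test by sign changes within mice allows no p under 0.03125 with 6 mice. Over the 25 comparisons of 5 pairs, in 2-sided tests, the smallest Benjamini-Hochberg adjusted p was 0.0558, so no share of a pair passed. The separation of mice is therefore given as counts.

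Rpl22l1 (chr3:28805436-28807424), the paralogue of Rpl22, a protein that mouse αβ T cells need to develop, held 27.3% ± 1.72 of its pair in DZ, 30.1% ± 2.30 in LZtoDZ, 23.2% ± 1.13 in preMem, 32.2% ± 4.04 in prePC, 27.6% ± 4.58 in PC and 25.0% ± 1.20 in LZ. Its own level was 1001 to 1668 CPM in prePC (median 1250) and 982 to 1275 CPM in LZtoDZ (median 1080), against 783 to 934 CPM in LZ (median 811). Neither range overlapped with LZ, and the log2 differences were 0.56 ± 0.08 in prePC (adjusted p = 7.5e-07) and 0.40 ± 0.06 in LZtoDZ (adjusted p = 3.4e-07). In PC it was 0.30 ± 0.07 (adjusted p = 0.00013, higher in 5 of 6 mice), which was -0.00227 with library sizes without TMM and -0.12 among G1 cells. Rpl22 itself was not called in LZtoDZ (0.03 ± 0.05), prePC (0.07 ± 0.06) or PC (0.09 ± 0.05) and rose in preMem (0.28 ± 0.05, adjusted p = 1.6e-05), where Rpl22l1 was not called (0.13 ± 0.07).

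**Figure D4:**
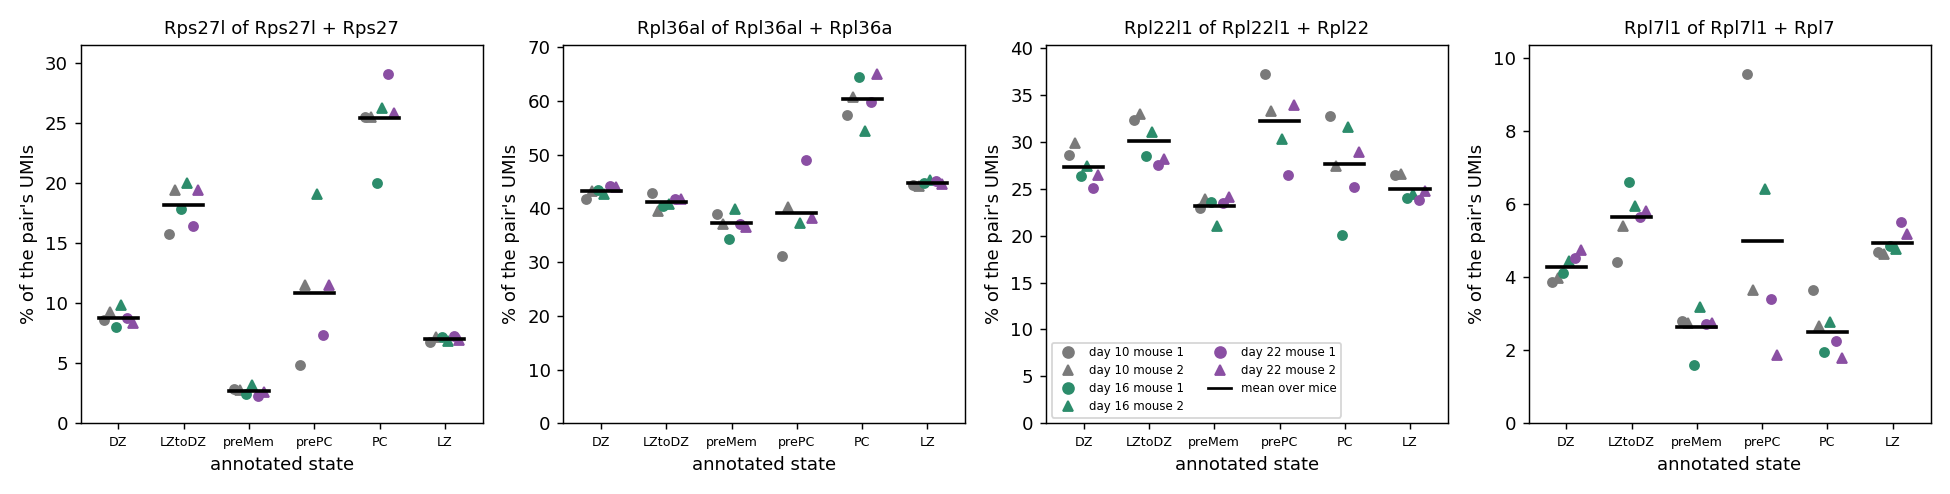
Share of each pair's UMIs held by the less abundant or later-named paralogue (percent, y axis) in each annotated state (x axis); points are mice and bars means. Rps27l reaches a mean of 25.4% in PC and 2.71% in preMem, and Rpl36al 60.3% in PC.

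Between days the same states were compared across mice, with 2 mice a day. In LZ 0 of 83 cytosolic genes were higher and 6 lower on day 22 than on day 10, and 1 of 77 mitochondrial genes was higher and 1 lower, against 4.39% of 9562 genes called, 1.78% higher and 2.61% lower. In DZ 0 cytosolic genes were higher and 2 lower, and 0 of 77 mitochondrial genes were called by edgeR, against 2.53% of 9392 genes, 1.27% higher and 1.27% lower. Leaving out day 10 mouse 2 left 0 cytosolic genes called in DZ, and leaving out day 10 mouse 1 or either day 22 mouse left 1. DESeq2 called 0 mitochondrial genes in DZ as well. An unadjusted edgeR p under 0.05 was found for 33 of 83 cytosolic and 7 of 77 mitochondrial genes in DZ. In LZ it was found for 29 of 83 and 8 of 77. The share of all genes at that unadjusted p was not counted. The set medians were -0.07 and -0.02 in LZ and -0.10 and -0.05 in DZ.

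Rpl22l1 was the gene called in both zones. In LZ it had 967 and 918 CPM on day 10, 811 and 837 CPM on day 16 and 805 and 825 CPM on day 22. Both day 10 mice lay above the other 4, and day 22 minus day 10 was -0.21 ± 0.05 (adjusted p = 0.016). In DZ it had 1088 and 1098 CPM on day 10, 892 and 965 CPM on day 16 and 870 and 895 CPM on day 22 (-0.31 ± 0.06, adjusted p = 0.0039). Rpl8 (-0.15 ± 0.04), Rpl23 (-0.14 ± 0.04), Rps3a1 (-0.13 ± 0.04) and Rps20 (-0.12 ± 0.03) also fell in LZ. Rps2 in DZ had 3847 and 3832 CPM on day 10, 3287 and 3581 CPM on day 16 and 3387 and 3139 CPM on day 22 (-0.23 ± 0.06, adjusted p = 0.017), so both day 10 mice lay above the other 4.

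Mrpl30 in LZ (chr1:37890477-37898535) had 194 and 187 CPM on day 10, 150 and 147 CPM on day 16 and 160 and 145 CPM on day 22 (-0.32 ± 0.07, adjusted p = 0.011). Mrpl52 was higher on day 22 than on day 10 by 0.25 ± 0.07 (adjusted p = 0.038). Among G1 cells of LZ 34 cytosolic genes were lower on day 22 than on day 10 and 0 higher, against 3.33% of 8403 genes called, and among G1 cells of DZ edgeR called none against 0.846%. Over all LZ cells the count of lower cytosolic genes was 15 without day 10 mouse 2, 2 without either day 16 mouse and 1 without any of the other 3 mice. The mitochondrial count in LZ was 0 without day 10 mouse 2 or day 22 mouse 2, and 1 without the other mouse of either day. In LZ and DZ alike, leaving out a mouse of a compared day leaves that day with 1 mouse, which is assumed to vary like the mice of the other days.

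**Figure D5:**
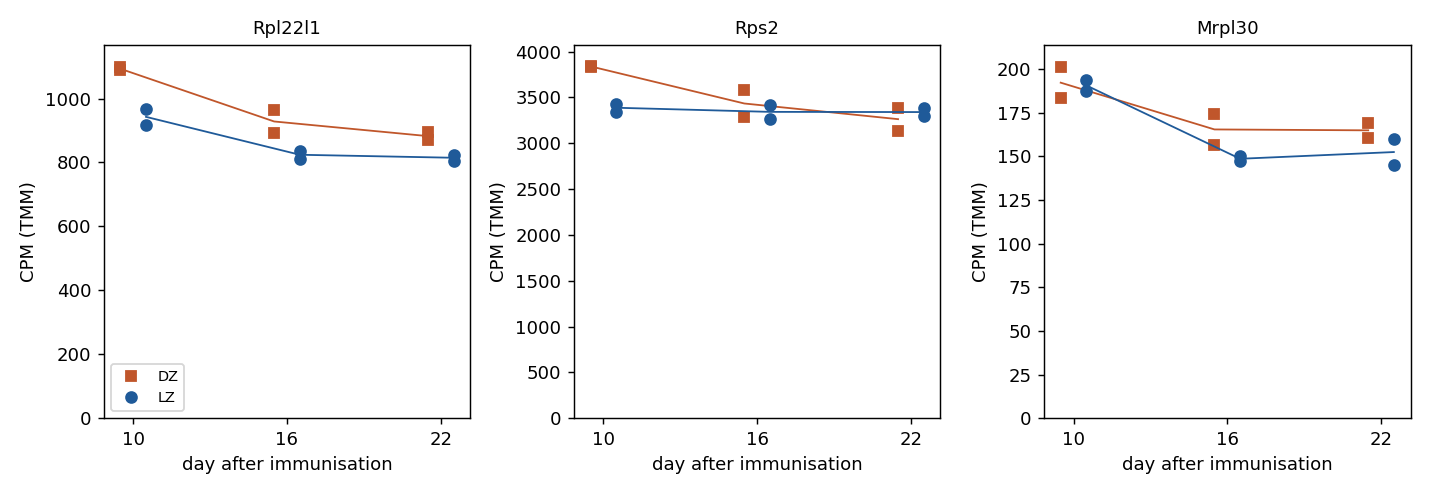
CPM after TMM scaling (y axis) of Rpl22l1, Rps2 and Mrpl30 against day after immunisation (x axis) in DZ (orange squares) and LZ (blue circles); points are mice, zones are drawn side by side at each day, and lines join the day means. Rpl22l1 lies at 918 to 1098 CPM on day 10 and at 805 to 895 CPM on day 22.

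Germinal centre cells sorted into the PC well could be set against those of the same mouse in the non-PC well in 4 mice. Of 83 cytosolic genes 66 were higher in the PC well and 1 lower (median 0.25), and of 77 mitochondrial genes 33 were higher and 0 lower (median 0.34), against 22.0% of 8905 genes called, 11.1% higher. The mix of states differed: the PC well held 35 DZ, 43 LZtoDZ and 78 LZ cells, and the non-PC well 2347 DZ, 189 LZtoDZ and 3116 LZ cells. Rps27l had 573 ± 33.7 CPM in the PC well and 325 ± 12.6 CPM in the non-PC well (0.81 ± 0.07), and Mrps6 had 51.1 ± 16.4 CPM and 25.3 ± 0.99 CPM (0.91 ± 0.21). In LZ cells alone, an alternative chosen after seeing the data with 3 mice, edgeR called 0 members, against 0.498% of 7839 genes, with 10 cytosolic and 3 mitochondrial genes at an unadjusted p under 0.05, and the set medians were 0.09 and 0.03. The share of all genes at that unadjusted p was not counted here either. In these LZ cells Rps27l had 256, 683 and 323 CPM in the PC well, against 300, 291 and 286 CPM in the non-PC well of the same mice, so it was higher in 2 of 3 mice and most in day 16 mouse 1. Its difference was 0.56 ± 0.16 (adjusted p = 0.072), and Rpl23a, with 0.75 ± 0.06 over all germinal centre cells, one of 0.47 ± 0.14 (adjusted p = 0.10).

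Genes that make or use ribosomes were counted in the same tests, and their counts are to be read against the shares of all genes. These were 26.1% higher and 34.8% lower in LZtoDZ, 21.4% and 19.6% in preMem, 8.51% and 10.3% in prePC, 31.1% and 32.0% in PC, and 13.4% and 18.3% in DZ. Of 39 ribosome biogenesis genes 38 were higher and 0 lower in LZtoDZ (median 1.33), 0 were higher and 16 lower in preMem, 8 higher and 0 lower in prePC, 11 higher and 7 lower in PC, and 0 higher and 26 lower in DZ. The nucleolar genes Gnl3 and Mrto4 rose by 2.35 ± 0.11 and 2.06 ± 0.09 in LZtoDZ, and Nop58 fell by 0.71 ± 0.12 in preMem. Of 18 genes that carry a 5′ TOP motif but encode no ribosomal protein, 12 were higher and 3 lower in LZtoDZ, 7 and 3 in preMem, 8 and 0 in prePC, and 6 and 4 in PC, and the counts in PC are near or below the shares of all genes.

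Of 40 translation initiation factor genes 32 were higher and 5 lower in LZtoDZ, 4 higher and 16 lower in preMem, 3 and 2 in prePC, which is near the shares of all genes, and 23 and 6 in PC. Eif4a1, the helicase of initiation, fell by 0.78 ± 0.10 in preMem. Of 11 elongation and termination genes 8 were higher and 1 lower in LZtoDZ, 4 and 3 in preMem, 5 and 0 in prePC, and 10 and 0 in PC. Fau and Gnb2l1 encode cytosolic ribosomal proteins under other names. Fau, whose product yields the small-subunit protein eS30, was lower in LZtoDZ (-0.75 ± 0.05) and in PC (-0.56 ± 0.05) and higher in preMem (0.52 ± 0.05), and Gnb2l1, the scaffold RACK1, was higher in LZtoDZ (0.47 ± 0.06), preMem (0.27 ± 0.06) and PC (0.49 ± 0.06).

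Of the 13 protein genes of the mitochondrial DNA 0 were higher and 9 lower in LZtoDZ, 9 higher and 0 lower in preMem, 0 and 3 in prePC, 2 and 6 in PC, against the shares of all genes above. In DZ edgeR called 0 of them, with 0 at an unadjusted p under 0.05. mt-Co1, a subunit of cytochrome oxidase, fell by 0.59 ± 0.08 in LZtoDZ and rose by 0.59 ± 0.08 in preMem. Of 22 other genes of mitochondrial translation and transcription 15 were higher and 1 lower in LZtoDZ, 2 and 5 in preMem, 0 and 0 in prePC, 3 and 3 in PC, and 1 and 2 in DZ. In prePC, PC and DZ no larger part was thus called in either direction than over all genes. In preMem the lower part was near the share of all genes and the higher part below it. Tufm, the mitochondrial elongation factor Tu, rose by 0.73 ± 0.08 in LZtoDZ and fell by 0.62 ± 0.13 in preMem. Of 6 mitochondrial ribosomal protein genes under other names 5 were higher in LZtoDZ, 2 lower in preMem and 4 higher in PC. Among 11 genes that control ribosome synthesis 5 were higher and 3 lower in LZtoDZ, where Myc rose by 1.75 ± 0.12, and 2 higher and 0 lower in preMem, where the translation inhibitor Pdcd4 rose by 2.62 ± 0.25.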

How the data were processed

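The authors' deposited matrix gives raw UMI counts for 14493 genes in 6619 cells of 6 mice, from 16 expression libraries, and its sums matched the deposited cell totals in all 6619 cells. The libraries were 10x 5′ version 2, per the labels' protocols. Cell Ranger, Seurat and the build mm10/GRCm38 are named in the submitters' processing notes, without versions. State, phase, day and mouse came from the deposited cell table. The state rule, the phase method and the treatment of doublets are not given in the sources used here, and no cell was removed.

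The 253 immunoglobulin genes (2.88% of UMIs over all cells) were left out of counts and library sizes. Their part was larger in PC: in day 10 mouse 2, 2029842 of 2604276 PC UMIs were left, against 6726177 of 6824665 in LZ. Counts were summed by mouse and state over at least 10 cells (3 for prePC) and tested with edgeR 4.0.16 (R 4.3.3; filterByExpr, TMM, quasi-likelihood F test, mouse as block, days without it), adjusted by Benjamini-Hochberg at 0.05. The mouse block rests on sums from the same animals. Paralogue shares used 2-sided exact permutation tests (own code with numpy 2.4.6). Sums held 32769 (3 prePC cells) to 6726177 UMIs, so low genes of prePC are the least precise.

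Members and gene lists were chosen with earlier results of these data known. Members named are up to 5 in each direction for each set and comparison among those past the threshold with at least 20 CPM and the same direction in every mouse, the paralogue pairs with at least 50 UMIs of the rarer gene, and up to 3 of each other list. Some genes this takes are not reported here. Gene positions are from GENCODE M21. Alternatives were DESeq2 1.42.0 (its size factors and its test), no TMM, no low-count filter, immunoglobulin genes kept, at least 30 cells, no mouse block, G1 cells, cells of 1 well, and each mouse left out. The edgeR steps were first checked on simulated counts. Receptor and hashtag libraries were not used here.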

Additional observations from a re-analysis of the deposited data

Results flagged for a closer look

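Values of single mice were compared with the rest of their group wherever a group had 4 to 10 mice, and 9 of 174 groups had a mouse far from the others, where chance alone flags about 1 in 20. In preMem, day 10 mouse 1 had a cytosolic share of 34.2% of non-immunoglobulin UMIs, the highest of the 6 mice. In prePC the same mouse had 34.3%, from 3 cells. In LZ it had the lowest mitochondrial share, 0.779%, and the highest ratio of cytosolic to mitochondrial UMIs, 34.2. Rpl7l1 held 1.59% of its pair with Rpl7 in the preMem cells of day 16 mouse 1, below the other 5 mice. Mrps6 had 40.4 CPM in the preMem cells of day 22 mouse 2, above the other 5. Rps4l, which has 352 UMIs in all cells, held 0.649% of its pair with Rps4x in LZtoDZ of day 16 mouse 2, 0.176% in prePC of day 10 mouse 2 and 0.262% in LZ of day 16 mouse 1.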

How the results depend on the processing

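Counts of changed genes that moved by over 1.5 times are given here, each as the cytosolic or mitochondrial count under the alternative. In DZ the cytosolic count of 5 was 10 without TMM, 1 without the low-count filter, 1 with immunoglobulin genes kept, 20 with DESeq2's test, 2 with no replicate block, 1 in G1 cells, 16 with at least 30 cells and 12 in the non-PC well, and the mitochondrial count of 25 was 9 with immunoglobulin genes kept and 11 in G1 cells. Over all genes 2367 of 7474 were called in DZ. That count was 2447 without TMM, 2523 of 14240 without the filter and 1416 of 7641 with immunoglobulin genes kept. It was 1721 with DESeq2's test, 1906 with no block and 1156 of 6636 in G1 cells. With at least 30 cells it was 3054 of 9810, and in the non-PC well 2822 of 8287. In prePC the cytosolic count of 57 was 30 without the filter and 25 in G1 cells (where the mitochondrial median turned to -0.33), and the mitochondrial count of 3 was 7 with DESeq2 size factors, 1 without the filter, 8 with DESeq2's test, 5 with no replicate block and 5 in the non-PC well. Over all genes 1403 of 7474 were called in prePC, 1453 of 14240 without the filter and 825 of 6636 in G1 cells. The count over all genes was 1377 with DESeq2 size factors, 1380 with its test, 1442 with no block and 1439 of 8287 in the non-PC well. In PC 68 cytosolic and 48 mitochondrial genes became 18 and 8 in the PC well alone, with fewer sums and genes, and the mitochondrial count was 30 in G1 cells. Over all genes 4719 of 7474 became 911 of 3013 in the PC well and 3539 of 6636 in G1 cells. Between days in LZ the cytosolic count of 6 was 1 without TMM, 1 with immunoglobulin genes kept, 2 with DESeq2's test and 34 in G1 cells, and the mitochondrial count of 2 was 0 with immunoglobulin genes kept and 0 with DESeq2's test. Over all genes 420 of 9562 became 386 without TMM and 148 of 9753 with immunoglobulin genes kept. They became 126 with DESeq2's test and 280 of 8403 in G1 cells. Between days in DZ the cytosolic count of 2 was 1 without TMM, 6 without the filter, 0 with immunoglobulin genes kept, 1 with DESeq2's test, 0 in G1 cells and 4 in the non-PC well. Over all genes 238 of 9392 became 263 without TMM, 366 of 13561 without the filter and 51 of 9572 with immunoglobulin genes kept. They became 56 with DESeq2's test, 58 of 6854 in G1 cells and 283 of 9308 in the non-PC well. Between wells both counts were 0 in LZ cells alone, where 39 of 7839 genes were called, against 1962 of 8905 over all germinal centre cells. The causes were not tested.

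With no replicate block the pairing of sums within mice is dropped: 54 cytosolic and 63 mitochondrial genes were called in LZtoDZ, 72 and 43 in preMem, 67 and 47 in PC, and 63 and 39 between wells. Over all genes 4446 of 7474 were then called in LZtoDZ, 2999 in preMem, 4687 in PC, and 1983 of 8905 between wells. Without the block the share of Rpl22l1 in its pair had an adjusted exact permutation p under 0.05 for DZ (2.27 percentage points), LZtoDZ (5.09), preMem (-1.82) and prePC (7.25). The paired test had none, although its unadjusted p for DZ, LZtoDZ and preMem was 0.03125, the smallest it allows. Leaving out 1 mouse in turn gave 0 to 4 cytosolic and 20 to 22 mitochondrial genes in DZ, 52 to 55 and 60 to 64 in LZtoDZ, 70 to 73 and 26 to 45 in preMem, 35 to 51 and 1 to 4 in prePC, 63 to 67 and 36 to 48 in PC, 1 to 15 and 0 to 2 between days in LZ, 0 to 2 and 0 between days in DZ, and 54 to 67 and 23 to 33 between wells. Over all 6888 to 8398 genes tested in the refits of states, the calls were 1819 to 2272 in DZ and 3970 to 4713 in LZtoDZ. They were 2133 to 3063 in preMem, 501 to 1416 in prePC and 3756 to 4963 in PC. With 1 mouse left out, the Rpl22l1 share differed by 2.06 to 2.47 points in DZ, 4.79 to 5.43 in LZtoDZ, -2.12 to -1.48 in preMem, 6.13 to 8.15 in prePC and 1.74 to 3.95 in PC.

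Single genes changed direction in these cases: in PC without TMM, Rpl22l1 (-0.00227), Rpl22 (-0.22) and mt-Atp8 (-0.017); in PC within its well, mt-Atp8 (-0.41); among G1 cells, Rps12 in DZ (-0.0078), Nolc1 in prePC (-0.24) and Rpl22l1 in PC (-0.12); and between wells in LZ cells, Rps27 (0.13), Mrpl12 (-0.25), Mrpl20 (-0.042), Rpl22l1 (-0.10), Eif5a (-0.21), Tufm (-0.21) and Larp1 (-0.92). Over the other alternatives 2547 values of single genes kept direction and side of the threshold, 204 lost the call and 66 gained it. G1 cells of LZtoDZ and sums of at least 30 cells for prePC gave no value. Depth limits prePC most, with 3 to 28 cells a mouse.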
